A study of Mus musculus with 8 samples.

Results

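The genes described here are 10 that make leukotrienes and prostaglandins or answer to a leukotriene, Pla2g4a, Alox5, Alox5ap, Lta4h, Ltc4s, Ptgs1, Ptgs2, Hpgds, Ptges and Cysltr1, chosen by name among the 55359 genes of the table. All 10 were rows of the table. They were measured by RNA sequencing in 8 untreated libraries of murine peritoneal mast cells (PMCs). All cells derive from wild-type mice of the mixed strain C57BL/6x129/Sv. Primary WT PMCs were 3 cultures from female and 3 from male mice, labelled as biological replicates. PMC-303 and PMC-306 are lines that arose on their own in ageing, neglected PMC cultures, and each gave 1 library. Both lines are kept in less serum and less stem cell factor than primary PMCs, and the study reported chromosome changes in both. Medium, these changes and transformation therefore cannot be told apart. The mice's ages are not given in the labels.

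Mast cells answer activation by making lipid mediators from arachidonic acid within minutes, next to releasing their granules. Cytosolic phospholipase A2 frees arachidonic acid from membranes, 5-lipoxygenase with its activating protein turns it into leukotriene A4, and separate enzymes then make leukotriene B4 or leukotriene C4. The cyclooxygenases turn the same acid into prostaglandin H2, from which mast cells are known to make mainly prostaglandin D2, a product of hematopoietic prostaglandin D synthase.

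Hpgds, the prostaglandin D synthase, was lower in both lines than in every culture of primary WT PMCs by CPM, 1.79-fold and 1.37-fold under their mean, but in TPM PMC-306 lay inside their range. For the 5 genes of the leukotriene route, Pla2g4a, Alox5, Alox5ap, Lta4h and Ltc4s, no difference between lines and primary cultures passed the test. Cysltr1, a receptor for cysteinyl leukotrienes, was at the edge of detection in the primary cultures and had 20 and 17 counts in the lines. Ptgs1, the cyclooxygenase expressed in resting cells, differed more between the lines and among the primary cultures than any other member with at least 10 counts scaled to library size (CPM). In bulk RNA such as this, fewer cells of a type and less RNA per cell cannot be told apart.

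Libraries held between 15918758 and 24180226 counts assigned to genes, so that 3 counts, the floor used here, amount to 0.123 to 0.187 CPM. CPM was scaled by trimmed mean of M values (TMM) library sizes. The mast cell genes Kit, Fcer1a, Cpa3 and Gata2 were at 495 CPM or more in all 8 libraries. Of 15 mast cell markers, 6 were called lower in the lines and 0 higher. Those called were Kit, Fcer1a, Il1rl1, Mcpt4, Tpsb2 and Tpsab1. Kit had 1946 (PMC-303) and 2055 (PMC-306) against a primary mean of 3674 CPM, and Fcer1a 2480 and 1323 against 4683 CPM. Mcpt4 was at 1.85 (PMC-303) and 0.049 (PMC-306) against 31.6 to 434 CPM in the primary cultures, and Tpsb2 at 177 and 20.9 against 2857 to 10440 CPM. All 15 markers summed to 45870 CPM in PMC-303, 42000 CPM in PMC-306 and 55380 to 86130 CPM in the primary cultures. Of 12 macrophage markers, 4 had enough counts to be tested and 1 was called, higher in the lines. Their summed level was 8.93 CPM in PMC-303, 452 CPM in PMC-306 and 7.75 to 68.9 CPM in the primary cultures. In PMC-306, Adgre1 alone gave 426 CPM of that sum. Icam2, the marker called, reached 10.6 CPM in PMC-306, while PMC-303 had 1.77 CPM and the primary cultures 0.0878 to 1.10 CPM, and Cd68 was at 13.9 CPM in PMC-306, inside their range of 1.48 to 17.9 CPM. In PMC-306 Csf1r was at 0.0982 CPM and C1qa, C1qb, Marco and Timd4 were at 0. The summed neutrophil markers reached at most 0.196 CPM in any library. Eosinophil markers summed to at most 2.45 CPM, basophil markers to 3.78 CPM, T and NK cell markers to 1.98 CPM, B cell markers to 0.264 CPM, and fibroblast and mesothelium markers to 0.245 CPM.

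The lines were compared with the primary cultures gene by gene, PMC-303 and PMC-306 as 2 samples against 6, by limma on log2(CPM + 0.1) with a Benjamini-Hochberg adjusted p under 0.05 as the threshold. Differences are given as log2 of the lines minus the primary cultures with their standard error (SE) and 95% interval. Of 14525 genes tested, 33.8% were called, 18.3% higher and 15.5% lower in the lines. Higher genes thus made up 54.1% of the calls, a share of 67.2% with library totals, 33.6% with upper quartile scaling and 70.7% with TPM, a deposited measure scaled for transcript length. Of the members, 9 had enough counts to be tested, 1 was called higher, 1 lower and 7 were not called. Their median log2 difference was -0.01, and that of all genes tested was -0.01. For 2 members, Hpgds and Cysltr1, both lines were below or both above every primary culture in CPM, which held for 43.1% of all genes tested. Cysltr1, the member called higher, passed the filter on low counts through the lines alone. Neither its call nor its place above the range is therefore support for a difference.

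**Figure D1:**
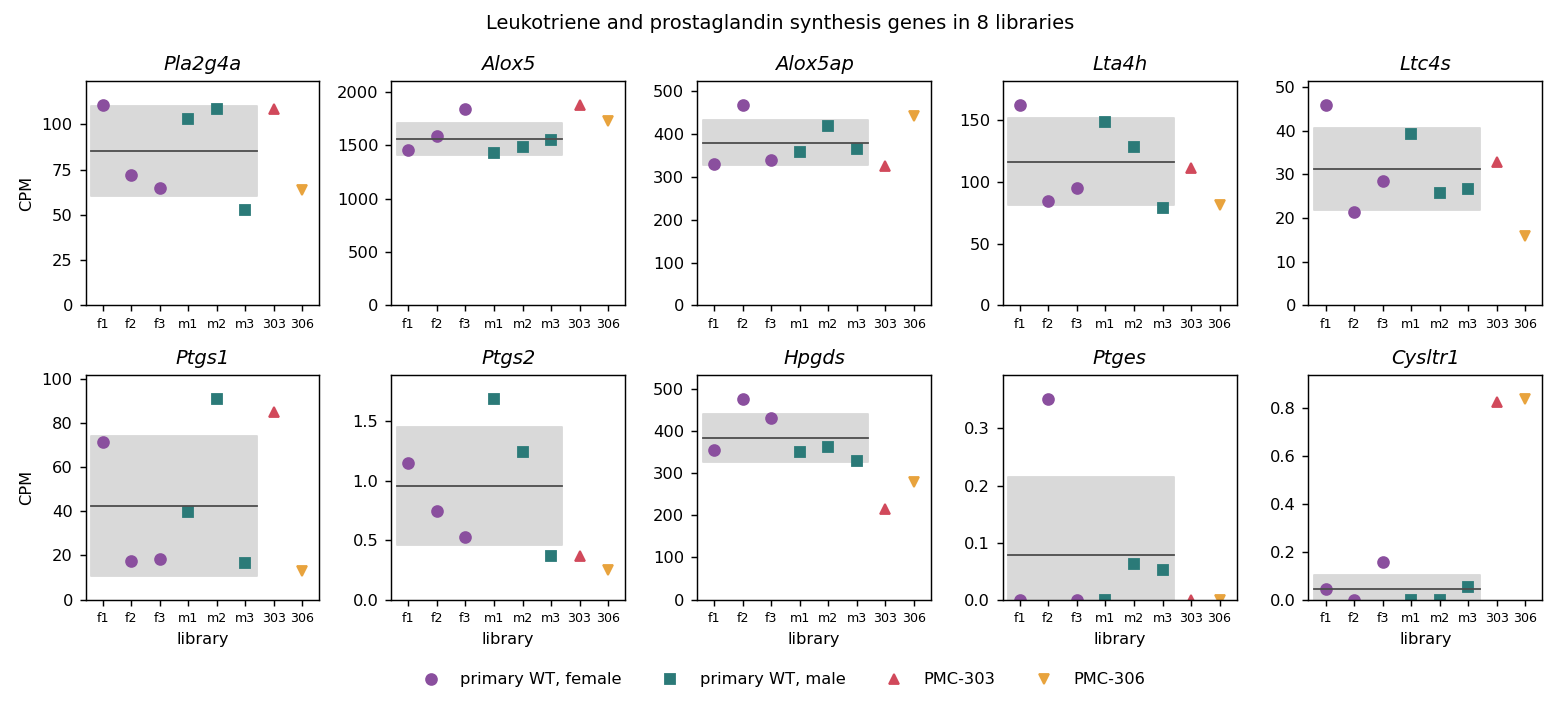
CPM of each of the 10 genes (linear axis from 0) in the 8 libraries, with female (f1 to f3) and male (m1 to m3) primary WT cultures, PMC-303 and PMC-306 as points, the mean of the 6 primary cultures as a line and 1 SD as a grey band. Both lines lie below all primary cultures for Hpgds and above them for Cysltr1, and f1, m1 and m2 are the highest primary cultures for Pla2g4a, Lta4h, Ptgs1 and Ptgs2.

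Promoter windows are shown for the called gene with high counts, Hpgds, and for 4 members that were highest in the same 3 primary cultures, Pla2g4a, Lta4h, Ptgs1 and Ptgs2. They are the 250 bases before the gene's start, taken from RefSeq on GRCm38.p6, 5′ to 3′ on the gene's strand, and capitals mark a match on either strand. The motifs searched were that of GATA factors, in its form AGATAA as well as in the form TGATAA, and the E-box, in its form CACGTG as well as in the form CATGTG. Further motifs were the AP-1 site with the letters TGAGTCA, the cyclic AMP response element with the letters TGACGTCA, the core promoter element TATAAA and the GC box with the letters GGGCGG. No matches overlapped. For Hpgds the window was chr6:65144731-65144980 (minus strand), for Pla2g4a, the upstream one of 2, chr1:149961291-149961540 (minus strand), for Lta4h chr10:93453146-93453395 (plus strand), for Ptgs1 chr2:36230176-36230425 (plus strand) and for Ptgs2 chr1:150099781-150100030 (plus strand).
Hpgds: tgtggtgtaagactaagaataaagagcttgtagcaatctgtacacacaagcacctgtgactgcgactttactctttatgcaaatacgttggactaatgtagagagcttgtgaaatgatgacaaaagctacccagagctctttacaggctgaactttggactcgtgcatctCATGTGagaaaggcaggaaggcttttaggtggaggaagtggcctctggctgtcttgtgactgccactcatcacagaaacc
Pla2g4a: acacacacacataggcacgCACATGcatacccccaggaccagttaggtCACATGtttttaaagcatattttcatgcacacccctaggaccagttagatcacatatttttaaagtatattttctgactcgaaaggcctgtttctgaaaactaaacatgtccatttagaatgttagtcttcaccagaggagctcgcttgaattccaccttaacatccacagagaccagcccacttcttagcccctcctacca
Lta4h: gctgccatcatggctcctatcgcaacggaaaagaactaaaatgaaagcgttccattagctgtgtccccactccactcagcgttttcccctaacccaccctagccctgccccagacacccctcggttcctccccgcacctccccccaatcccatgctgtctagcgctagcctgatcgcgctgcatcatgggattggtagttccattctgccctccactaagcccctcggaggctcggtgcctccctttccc
Ptgs1: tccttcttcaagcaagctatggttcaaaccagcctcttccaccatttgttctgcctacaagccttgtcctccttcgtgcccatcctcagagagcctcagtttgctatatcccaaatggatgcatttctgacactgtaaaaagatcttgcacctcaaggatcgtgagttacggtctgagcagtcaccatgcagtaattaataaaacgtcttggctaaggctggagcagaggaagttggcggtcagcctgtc
Ptgs2: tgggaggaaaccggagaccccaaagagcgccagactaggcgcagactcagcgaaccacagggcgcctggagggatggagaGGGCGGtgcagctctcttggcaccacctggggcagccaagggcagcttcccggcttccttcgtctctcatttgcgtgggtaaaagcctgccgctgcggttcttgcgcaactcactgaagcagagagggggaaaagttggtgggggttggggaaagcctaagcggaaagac
The windows of Lta4h and Ptgs1 held no match. That of Hpgds held 1 CATGTG, and that of Pla2g4a held 2 on the other strand. The second window of Pla2g4a, not printed, held 2 TGATAA matches and 1 of TATAAA. That of Ptgs2 held 1 GGGCGG, and past the start, at base 17, 1 CACGTG. Counted to 50 bases past the start, CATGTG occurred in 14.2%, CACGTG in 7.15% and GGGCGG in 35.7% of 32851 windows of all genes, and 11.2% held AGATAA, 9.05% TGATAA, 5.2% TGAGTCA, 1.79% TGACGTCA and 13.6% TATAAA. No motif of this list occurred in the windows of all 4 members with the same highest cultures. Windows matched 8 members, without Alox5ap and Cysltr1.

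Levels between genes can be compared only per transcript length, in TPM. In the primary cultures Alox5, the 5-lipoxygenase, was at 599 ± 91.8 TPM (SD, n = 6) and Alox5ap, its activating protein, at 592 ± 107 TPM. Alox5 was the higher of both in PMC-303, female 1, female 3, male 1 and male 3, and Alox5ap in PMC-306, female 2 and male 2, so that their order did not hold across libraries. Hpgds came next in all 8 libraries, at 158 ± 28.0 TPM in the primary cultures. Lta4h, the leukotriene A4 hydrolase that makes leukotriene B4, followed with 73.7 ± 27.0 TPM and Ltc4s, the leukotriene C4 synthase, with 64.9 ± 20.5 TPM. These changed places in PMC-303, female 3 and male 3. Pla2g4a, the cytosolic phospholipase A2, was at 37.0 ± 11.6 TPM and Ptgs1 at 19.7 ± 15.8 TPM, in the reverse order in male 2. Ptgs2, the inducible cyclooxygenase, had 0.226 ± 0.125 TPM. Ptges, the microsomal prostaglandin E synthase, and Cysltr1 had means of 0.0755 and 0.0150 TPM and 0 in several cultures. The enzymes of the leukotriene C4 route and Hpgds therefore stood far above Ptgs2 and Ptges in every library.

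**Figure D2:**
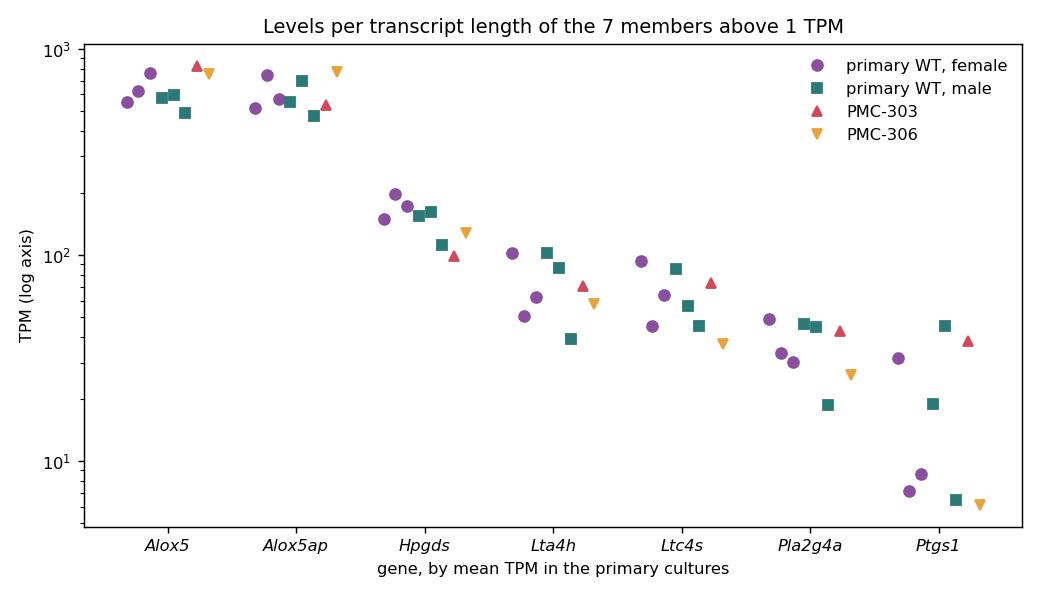
TPM on a log axis for the 7 members above 1 TPM, ordered by their mean in the primary cultures, with 1 point per library. Alox5 and Alox5ap share the highest levels, from 470 to 825 TPM over the 8 libraries, and Ptgs1 has the widest spread, from 6.13 to 45.4 TPM.

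Pla2g4a (chr1:149705369-149837053, minus strand, on GRCm39 as are all gene positions from here) had 108 CPM (PMC-303) and 63.6 CPM (PMC-306) in the lines. The primary cultures ran from 52.8 through a median of 87.5 to 111 CPM. Both lines lay inside this range, and the log2 difference was 0.02 (SE 0.32, 95% interval -0.72 to 0.75, limma adjusted p = 0.972).

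Alox5 (chr6:116387032-116438139, minus strand) had 1874 CPM (PMC-303) and 1728 CPM (PMC-306), against a lowest, median and highest primary value of 1425, 1510 and 1837 CPM. PMC-303 was just above and PMC-306 inside the range, and the log2 difference of 0.22 (SE 0.12, 95% interval -0.05 to 0.49) was not called (limma adjusted p = 0.195). Alox5ap (chr5:149196003-149227762, plus strand) had 325 CPM (PMC-303) and 441 CPM (PMC-306), and the primary cultures ran from 329 through 362 to 467 CPM. PMC-303 was just below the range and PMC-306 inside it, with a log2 difference of 0.01 (SE 0.16, 95% interval -0.36 to 0.37, limma adjusted p = 0.975).

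Lta4h (chr10:93289210-93320749, plus strand) had 111 CPM (PMC-303) and 81.0 CPM (PMC-306), both inside the primary range of 79.0 to 162 CPM with a median of 111 CPM. Its log2 difference was -0.24 (SE 0.29, 95% interval -0.91 to 0.43, limma adjusted p = 0.566). Ltc4s (chr11:50127288-50129443, minus strand) had 32.8 CPM in PMC-303, inside the primary range of 21.4 to 45.9 CPM with a median of 27.6 CPM, and 15.9 CPM in PMC-306, below it. The log2 difference was -0.40 (SE 0.34, 95% interval -1.17 to 0.36, limma adjusted p = 0.39), and without PMC-306 it was 0.12. Pla2g4a, Alox5, Alox5ap, Lta4h and Ltc4s together lead to leukotriene B4 and leukotriene C4. For none of them did limma call a difference between lines and primary cultures in the main comparison or in any of 17 alternatives. In PMC-306 alone, Ltc4s had a log2 fold of -0.97 against the primary mean, and -1.1 with upper quartile scaling.

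Hpgds (chr6:65094001-65121983, minus strand) had 214 CPM (PMC-303) and 279 CPM (PMC-306). The 6 primary cultures had 356, 476 and 431 CPM (female) and 350, 361 and 328 CPM (male), a mean of 384 ± 56.8 CPM (SD, n = 6). In CPM both lines were below every primary culture, 1.79-fold (PMC-303) and 1.37-fold (PMC-306) under the primary mean. The log2 difference was -0.64 (SE 0.16, 95% interval -1.0 to -0.27) with a limma adjusted p of 0.0154. It was called in 14 of 17 alternatives, with adjusted p between 0.00769 and 0.131, and kept its direction in all of them. In TPM, PMC-303 (99.2) was below all primary cultures (112 to 197), whereas PMC-306 (128) was above male 3, the lowest of them. The call was lost without PMC-303 (adjusted p = 0.131), with TPM (0.123) and against the male cultures alone (0.0551).

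Ptgs1 (chr2:36120438-36142287, plus strand) had 85.1 CPM (PMC-303) and 12.9 CPM (PMC-306), 6.59-fold apart. The female primary cultures had 71.7, 17.4 and 18.5 CPM and the male ones 39.8, 90.9 and 16.5 CPM. Thus PMC-303 lay near the top of the primary cultures and PMC-306 just below the lowest of them. As the lines lay at opposite ends, their joint log2 difference was -0.01 with a wide 95% interval of -2.0 to 1.98 (SE 0.87, limma adjusted p = 0.996). Without PMC-306 it was 1.35 and without PMC-303 -1.36. By a rule for single lines, at least 2-fold from the primary mean and outside the primary range, PMC-306 was called lower for Ptgs1, 3.27-fold under the primary mean, and for no other member. PMC-303 had no member called by this rule. It called 18.5% of 13024 genes in PMC-303 and 19.4% of 13064 genes in PMC-306, and 7 members had the 1 CPM it needs. With 1 library, these differences of a single line have no replicate check. PMC-306 was also the library with the most Adgre1, and whether this has a part in its Ptgs1 level was not tested.

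Ptgs2 (chr1:149975194-149983978, plus strand) is the neighbour of Pla2g4a, 138 kb away on the opposite strand with no protein-coding gene between them in GENCODE vM39. It had 9 counts in PMC-303 and 5 in PMC-306, and 25, 17 and 10 in the female and 33, 20 and 7 in the male primary cultures. In CPM these were 0.371 and 0.246 in the lines against 0.367 to 1.69, with a median of 0.947, in the primary cultures. PMC-306 lay below the range and PMC-303 at its lower edge. The log2 difference was -1.24 (SE 0.52, 95% interval -2.44 to -0.04), which limma did not call (adjusted p = 0.103). Over the 17 alternatives the adjusted p ran from 0.0467 (without male 3, the lowest primary culture) to 0.336. Pooled over libraries, the primary cultures had 3.02 times the Ptgs2 level of the lines (exact 95% interval 1.73 to 5.7). That interval covers counting error only. Ptgs2 passed the filter on low counts through the primary cultures alone, so neither its test nor this ratio is support for a difference.

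Ptges (chr2:30779483-30820196, minus strand) had 0 counts in both lines and 0, 8 and 0 (female) and 0, 1 and 1 (male) in the primary cultures. It had too few counts for the test, and no fold is given because all but 1 of the libraries were under the floor of 3 counts.

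Cysltr1 (X:105617952-105647308, minus strand) had 20 counts in PMC-303 and 17 in PMC-306, or 0.823 and 0.835 CPM. The primary cultures had 1, 0 and 3 (female) and 0, 0 and 1 (male). Each line thus had more counts than all 6 primary cultures together, which had 5. The pooled level in the lines was 19.6 times that of the primary cultures, with an exact 95% interval of 7.68 to 63.9 for counting error. limma called it higher (log2 difference 2.80, SE 0.49, adjusted p = 0.00319, 0.000958 to 0.0428 over 17 alternatives). However, Cysltr1 passed the filter on low counts through the lines alone and therefore had to differ. Neither its test nor the pooled ratio is support for a difference. The fitted size depends on the offset added to CPM, and was lowest, 0.81, among the alternatives.

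**Figure D3:**
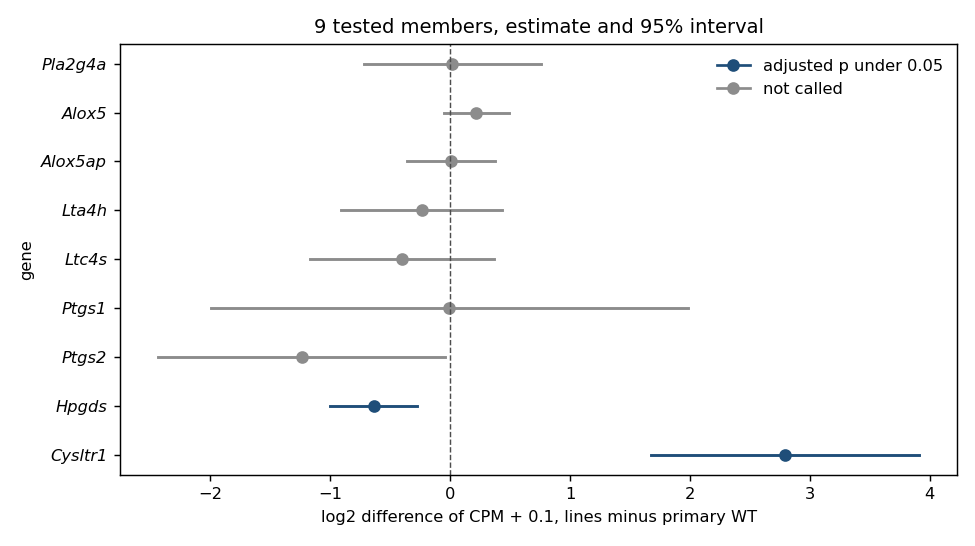
log2 difference of CPM + 0.1, lines minus primary WT cultures, for the 9 tested members, with points for the estimate and bars for the 95% interval from limma, blue where the adjusted p is under 0.05. Hpgds lies left of 0 at -0.64 and Cysltr1 right of it at 2.80, and the bar of Ptgs1 spans -2.0 to 1.98.

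Among the primary cultures the members differed in how steady they were. Between the highest and the lowest culture Alox5 differed 1.29-fold, Alox5ap 1.42-fold and Hpgds 1.45-fold, and the median of 8575 genes with at least 10 CPM was 1.27-fold. Lta4h differed 2.05-fold, Pla2g4a 2.1-fold and Ltc4s 2.15-fold, more than 92.2% to 92.8% of those genes. Ptgs1 differed 5.5-fold, more than 98.5% of them.

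The same 3 cultures, female 1, male 1 and male 2, were the highest for Lta4h, Ptgs1, Ptgs2 and Pla2g4a. For Lta4h they had 162, 149 and 128 CPM and the others 84.2, 94.9 and 79.0 CPM. For Pla2g4a they had 111, 103 and 108 CPM and the others 72.1, 64.8 and 52.8 CPM. Alox5 showed the opposite order, with 1457, 1425 and 1478 CPM in these cultures and 1581, 1837 and 1543 CPM in female 2, female 3 and male 3. This order of cultures was noticed in the members' values, and over all genes tested the 3 cultures were the highest for 9.23% and the lowest for 9.57%. They were also the primary libraries most like one another over all genes, with a chi-square per degree of freedom of 20.6 to 26.2 within the trio and 41.0 to 68.1 for the other primary pairs. Tpsb2, a mast cell tryptase, had 3407, 2857 and 4801 CPM in the trio and 9895, 6451 and 10440 CPM in the other cultures. The other listed mast cell markers overlapped between the trio and the other cultures. Among them, the tryptase Tpsab1 had 1.10, 2.61 and 7.52 CPM in the trio against 4.57, 3.85 and 7.45 CPM. Mcpt4 had 250, 380 and 158 CPM in the trio against 31.6, 434 and 107 CPM. Adgre1 was at 3.72, 3.37 and 4.35 CPM in the trio, at 3.96 CPM in female 3, and at 46.4 and 25.3 CPM in female 2 and male 3. Whether these marker genes have a part in the members' order was not tested.

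The trio crosses the sexes. Between female and male cultures (3 against 3), limma called 0.0438% of 13693 genes, 6 in all, and 0 of the 8 members it could test. At an unadjusted p under 0.05 it found 457 genes and 0 members. The largest step by its p was that of Hpgds, with 421 ± 60.6 CPM in female and 346 ± 16.7 CPM in male cultures (SD, n = 3 each). Its log2 difference was 0.27 (SE 0.12, limma adjusted p = 1, unadjusted p = 0.0564), and female 1 lay below male 2. Alox5 had 1625 ± 194 CPM in female and 1482 ± 58.8 CPM in male cultures, also overlapping.

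Salmon's transcript estimates give the share of each gene's counts that fell on transcripts with a retained intron, which total RNA libraries also capture. GENCODE vM39 lists such transcripts, with a mean share of at least 1%, for 6 of the members with at least 10 CPM. For Hpgds they took 17.6% in PMC-303 and 20.7% in PMC-306, against 22.3% to 30.6% with a median of 27.3% in the primary cultures. For Pla2g4a they took 4.31% and 4.12% against 7.09% to 9.94%, and for Alox5 4.92% and 7.95% against 8.69% to 12.1%. In these 3 genes both lines were below all primary cultures, which held for 10.6% of 4863 genes compared. For Lta4h, Ltc4s and Ptgs1 the groups overlapped, for Lta4h with 4.57% and 4.46% in the lines and 4.22% to 7.77% in the primary cultures. The median share over all genes compared was 6.68% in PMC-303, 8.46% in PMC-306 and 7.43% to 9.36% in the primary cultures, so PMC-303 was low overall. The comparison was chosen after the transcript values were seen and has no test.

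The fully spliced main transcript carried most transcript counts of Alox5, Hpgds, Pla2g4a and Ptgs1. Alox5-201, with 14 exons, had 89.5% in PMC-303, 88.2% in PMC-306 and 85.0% to 88.2% in the primary cultures. Hpgds-201, with 6 exons, had 82.4% and 79.3% against 69.4% to 77.7%, and Pla2g4a-201, with 18 exons, had 95.7% and 95.9% against 85.9% to 89.9%. Ptgs1-201, with 11 exons, had 97.1% and 96.3% against 91.3% to 97.8%.

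**Figure D4:**
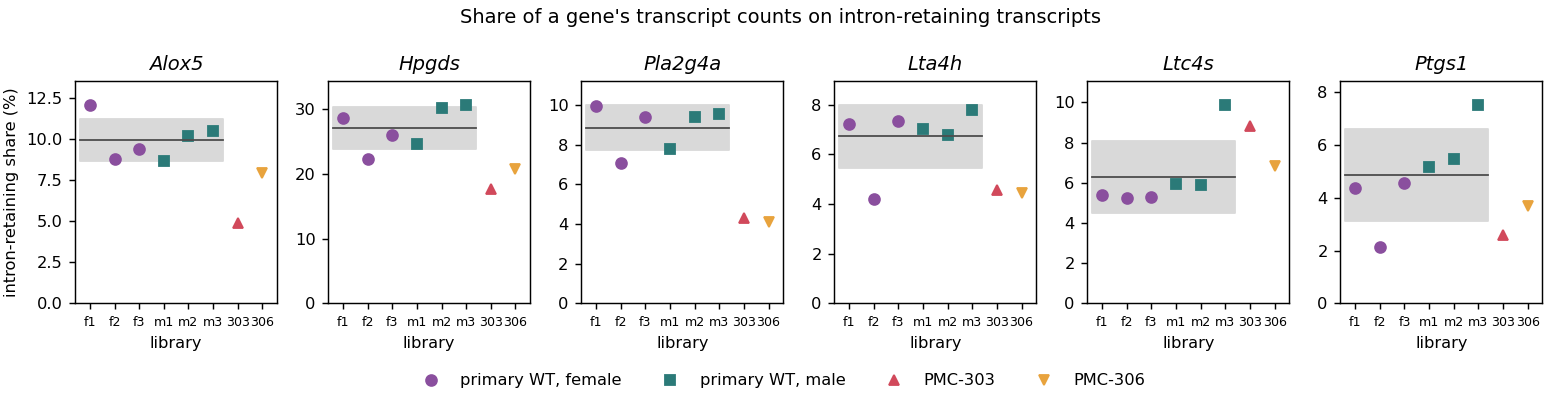
Percent of a gene's transcript counts on intron-retaining transcripts (linear axis from 0) in each library for 6 members, with the mean of the 6 primary cultures as a line and 1 SD as a grey band. PMC-303 and PMC-306 lie below all primary cultures for Alox5, Hpgds and Pla2g4a and overlap with them for Lta4h, Ltc4s and Ptgs1.

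Around the members, 92 further genes of arachidonic acid release, eicosanoid synthesis, transport and reception were examined. Of these 48 had enough counts for the test, 8 were called higher in the lines, 7 lower and 33 were not called. The 7 include Alox8, which passed the filter on low counts through the primary cultures alone. The called genes made up 31.2% of those tested (16.7% higher, 14.6% lower), near the 33.8% of all genes tested (18.3% and 15.5%). Their median log2 difference was -0.01.

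Upstream of the members, the phospholipase A2 list had 5 of 18 genes tested and 1 called. This was Pla2g15, the lysosomal phospholipase A2, with 45.5 and 35.6 CPM in PMC-303 and PMC-306 against 62.6 CPM on average in the primary cultures (log2 difference -0.62, limma adjusted p = 0.0148). Pla2g7, which inactivates platelet-activating factor and was named after its values were seen, had 624 CPM in PMC-303, 0 counts in PMC-306 and 207 to 342 CPM in the primary cultures. Against the floor of 3 counts, PMC-306 was at least 1830-fold lower than the primary mean. Among 14 genes that release arachidonic acid or put it back into lipids, 11 were tested, 4 were higher and 1 lower. Acsl3, an acyl-CoA synthetase, was higher by 2.03 on the log2 scale (limma adjusted p = 0.00814), with 22.9 and 30.5 CPM against a highest primary value of 12.02 CPM. Faah, the hydrolase of anandamide, was higher by 1.6 (0.00491) and Lpcat2, which makes platelet-activating factor and remodels phospholipids, by 0.62 (0.0315). Daglb, a diacylglycerol lipase, was lower, at -0.77 (0.00451).

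Among 11 other prostanoid enzymes, 8 were tested, 1 was higher and 2 lower. Ptges3, a cytosolic prostaglandin E synthase that is also a chaperone partner, had 216 and 194 CPM in the lines against 101 to 129 CPM (log2 difference 0.88, limma adjusted p = 0.000457). Tbxas1, the thromboxane synthase, had 217 and 262 CPM against 311 to 418 CPM (-0.64, 0.00585). Cbr1, a carbonyl reductase that acts on prostaglandin E2, had 15.5 and 8.64 CPM against 17.5 to 44.0 CPM (-1.30, 0.0187). Of 6 further lipoxygenases only Alox8 could be tested. It was called lower (limma adjusted p = 0.0147) and is named although low. Its levels were 0.0823 and 0.0982 CPM in the lines, under the floor, and 0.395 to 2.46 CPM in the primary cultures. Alox8 passed the filter on low counts through the primary cultures alone, so this call is no support for a difference. Of 8 genes of leukotriene conversion 1 was tested, of 5 transporters 2, and of 2 leukotriene B4 inactivation genes 1, and none was called. At an unadjusted p under 0.05 limma also found 0 of these 4 genes.

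Receptors for the members' products were few, and 6 of 15 were tested. Ltb4r2, a low-affinity leukotriene B4 receptor, was called lower, at 7.70 CPM in PMC-303, 2.11 CPM in PMC-306 and, in the primary cultures, 9.76 to 38.6 CPM (log2 difference -2.41, limma adjusted p = 0.014). Ltb4r1, the high-affinity one, had 2.43 CPM (PMC-303) and 41.8 CPM (PMC-306), where the primary cultures had 2.32 to 10.6 CPM. The lines differed 17.2-fold and the joint difference was not called (adjusted p = 0.569). The prostaglandin E2 receptors Ptger3 (155 and 101 CPM against 140 to 186 CPM) and Ptger4 (33.9 and 38.6 CPM against 24.8 to 33.7 CPM) were not called, nor was the prostacyclin receptor Ptgir (38.9 and 55.8 CPM against 12.8 to 33.5 CPM). Their adjusted p were 0.0912, 0.0939 and 0.068.

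Of 13 regulators of 5-lipoxygenase and cytosolic phospholipase A2, all were tested, 3 were higher and 1 lower. Cotl1, which binds 5-lipoxygenase, had 456 and 387 CPM against 235 to 276 CPM (log2 difference 0.74, limma adjusted p = 0.000684). Mapk14, the p38 kinase, was higher by 0.57 (0.00067) and Mapkapk2, a kinase it activates, by 0.47 (0.00752), while the related Mapkapk3 was lower, at -0.37 (0.0176). Their targets Alox5 and Pla2g4a themselves had log2 differences of 0.22 and 0.02 that were not called.

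**Figure D5:**
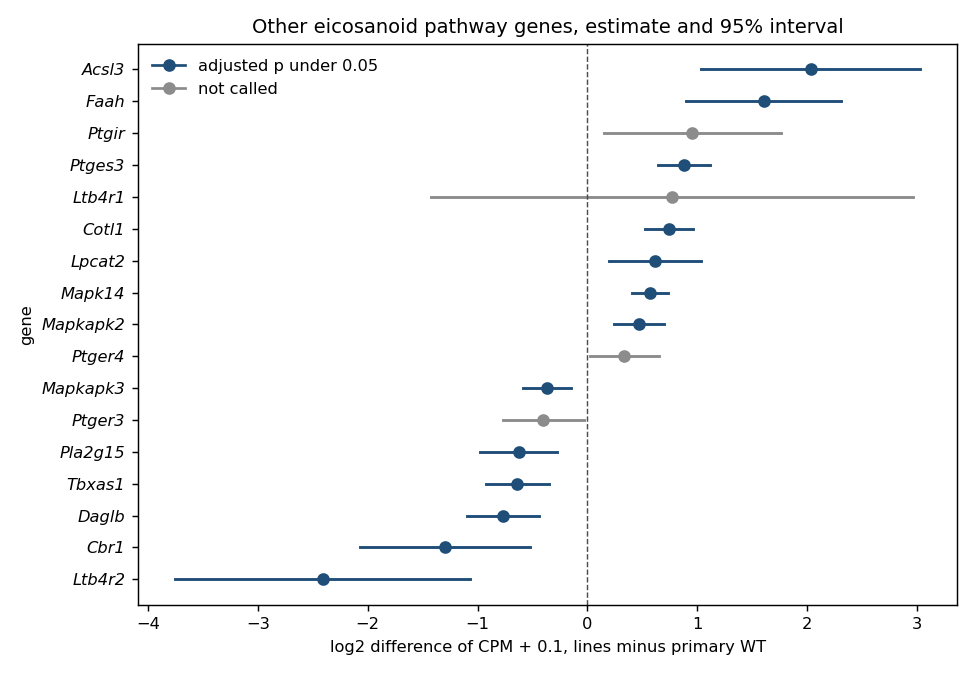
log2 difference of CPM + 0.1, lines minus primary WT cultures, for 17 named pathway genes outside the 10 members, with points for the estimate and bars for the 95% interval from limma, blue where the adjusted p is under 0.05. Acsl3 lies farthest right at 2.03 and Ltb4r2 farthest left at -2.41, and the 4 receptors in grey were not called.

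The genes whose pattern over the 8 libraries was most like that of Alox5, the member with the highest TPM, were Slc38a1 (Pearson r = 0.95), Mtf2 (r = 0.95) and Hnrnph2 (r = 0.94) among 8750 genes with at least 10 CPM. For Cysltr1, the member with the largest fitted difference, they were Atl2, Fcf1 and Hivep2 (r = 0.99 each). Atl2 had 64.7 and 58.7 CPM in the lines and 25.1 CPM on average in the primary cultures, so its likeness rests on the step between lines and primary cultures.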

How the data were processed

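RNA of 8 untreated PMC cultures was sequenced, 1 each of PMC-303 and PMC-306 and 6 of primary WT PMCs (3 female, 3 male), grouped by their labels. Per the labels, the authors made stranded total RNA libraries, and their processing used Trim Galore 0.6.7, STAR 2.7.9a and Salmon 1.5.2 on the GRCm39 build. Tables of estimated counts, of genes as well as transcripts and without normalization, and of gene TPM, scaled for length and depth, were deposited. Which annotation release and strand setting they used is not given in the sources used here.

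A spreadsheet program had rewritten cells, which were restored. They made up 3.37% of gene counts, 3.22% of transcript counts and 21.8% of TPM values. Afterwards 99.7% of gene counts were within 0.2 of the sum of their transcripts. The point in 9328 TPM cells was set to fit the counts. Because the deposited columns hold text cells, no count model was used. Instead limma 3.58.1 in R 4.3.3 was run on log2(CPM + 0.1) with TMM library sizes and a trended prior variance, two-sided, with adjustment after Benjamini and Hochberg, over genes with a count of about 10 in as many libraries as the smaller group and 15 in total. The fit was tested on simulated counts with the same spread for all genes, where only genes above 5 CPM were changed. That test does not cover members with low counts or a wider spread, such as Cysltr1 and Ptgs1. The TPM of transcripts was not used. The members and lists were chosen with earlier results of these data known. Named pathway genes are those called with at least 5 CPM, up to 4 per list by size, and receptors of at least 1 CPM. Gene positions come from GENCODE vM39 on GRCm39 and promoter windows from RefSeq on GRCm38.p6. Alternatives were other offsets (0.5 and 1 CPM), scalings and filters, TPM, limma-voom, 1 sex of primary cultures and leaving out each library. Antisense gene models overlap Alox5, Alox5ap, Ltc4s, Hpgds, Ptgs1, Ptgs2, Pla2g4a, Ptges and Cysltr1, and those in the table stayed at or under 1.65 CPM.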

Additional observations from a re-analysis of the deposited data

Results flagged for a closer look

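Among the 6 primary cultures, 10 measures (the CPM of each member) were searched. A culture was flagged where it stands apart by the size of its gap to the next. For normally distributed values chance alone would give about 0.5 such cases. That rate does not hold for genes at 0 or 1 count in most cultures. Ptges stood out in female 2, at 0.351 CPM or 8 counts, with the next culture at 0.0622 CPM or 1 count. Cysltr1 stood out in female 3, at 0.158 CPM or 3 counts, with the next at 0.0525 CPM or 1 count. Both genes were otherwise at 0 or 1 count in the primary cultures, so these values rest on 8 and 3 counts.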

How the results depend on the processing

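Each library was left out in turn, and offset, scaling, filter, test and sex of the primary cultures were varied, 17 alternatives for the lines. The count called higher was 1 in each, Cysltr1, which had to differ because of the filter on low counts, so this is no sign of stability. The count called lower, 1 in the main comparison (Hpgds), was 0 with TPM and against the male cultures alone, and 0 to 2 when single libraries were left out, 0 without PMC-303 and 2 without male 3, where Ptgs2 was called as well (log2 difference -1.44, limma adjusted p = 0.0467, with 0.336 as the highest over its alternatives). Ptgs2 passed the filter on low counts through the primary cultures alone, so its call is no support for a difference. Pathway genes called higher, 8 in the main comparison, were 13 with library totals and 3 against the female cultures alone. Those called lower, 7, were 13 with upper quartile scaling, 3 with TPM and 1 against the female cultures, and 4 to 8 with single libraries left out (4 without PMC-306). The median of all genes shifted by 0.11 with library totals, -0.17 with upper quartile scaling and 0.14 with TPM, and genes called ranged from 2158 (female cultures alone) to 5422 (upper quartile). By the single-line rule PMC-303 had 1 member called with upper quartile scaling, not 0, and 0 to 1 with single cultures left out (1 without male 2 or without male 3). The member was not the same. It was Hpgds with upper quartile scaling (log2 fold -1.05), Ptgs1 without male 2 (1.38) and Ptgs2 without male 3. In the main setting Ptgs2 lies under the 1 CPM that the rule needs, so its calls by this rule are no support for a difference. PMC-306 had 2, not 1, with upper quartile scaling and 1 to 3 with single cultures left out (2 without female 2, female 3 or male 2, 3 without male 3). Added to Ptgs1 was Ltc4s with upper quartile scaling (-1.1) and without female 2 (-1.06), male 2 (-1.02) or male 3 (-1.01). Ptgs2 was added without female 3 or male 3. With TPM 1 member, Cysltr1, and not 2 lay outside the primary range in both lines, since PMC-306 was inside it for Hpgds. Members that were not called and had log2 differences near 0 changed sign. For Alox5ap it was -0.16 with upper quartile scaling, -0.00388 against male cultures and -0.21 to 0.23 with single libraries left out. For Ptgs1 it was 0.00232 with an offset of 1 CPM, 0.10 with library totals, 0.0375 with TPM, 0.0539 with limma-voom, 0.22 against female cultures and -1.36 to 1.35 with single libraries left out. For Pla2g4a it was -0.15 with upper quartile scaling, -0.0731 with TPM, -0.0128 against male cultures and -0.36 to 0.40 with single libraries left out. For Ltc4s it ran from -0.92 to 0.12, the latter without PMC-306. The causes of these changes were not tested.

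Female and male cultures share replicate numbers in the labels but come from different mice. With the replicate block, 0 members were called, as without it, and 5 genes in place of 6. Deviations of same-numbered cultures from their sex means correlated at 0.54, -0.25 and 0.3 over genes with at least 10 CPM. Those of different-numbered cultures ran from -0.68 to 0.51. As deviations sum to 0 within each sex, these few values cannot decide whether the numbers pair the cultures. No alternative of this comparison called a member.

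A count model (edgeR's quasi-likelihood test) was to be tried if the columns passed as counts, and was not run because they hold text cells. With 1 library for each line, differences between the lines have no replicate check. Where a line was left out, the remaining one was assumed to vary like the primary cultures. Ptgs2, Ptges and Cysltr1 are limited by depth, at 33 counts or fewer in any library.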
